A study of Mus musculus with 18 samples.

Results

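Border-associated macrophages were followed here through 10 marker genes, Mrc1, Cd163, Stab1, Lyve1, Siglec1, Clec10a, Pf4, F13a1, Cbr2 and Ms4a7, out of 24421 genes counted. The genes were chosen as a named list of markers of these cells, and all 10 were present in the count tables of both cell types. RNA was sequenced in bulk from microglia and from astrocytes sorted by flow cytometry from dissociated whole brains of 9 untreated mice, with a microglia and an astrocyte library from every mouse, 18 libraries in all. Of these mice 4 were WT and 5 were APP-NLGF, with the genotype given as APP_NLGF/NLGF. All were of strain C57BL/6j, and every library name carries C3WT, so no mouse in these groups lacked C3. APP-NLGF is a knock-in, a mouse line in which the endogenous App gene carries a humanised sequence with familial Alzheimer mutations, and amyloid plaques form without an added transgene. Replicate 1 was female and the other 3 male among the WT mice, and replicate 1 was male and the other 4 female among the APP-NLGF mice, called APP below. The sources used here do not give the age of the mice or the antibodies of the sort. The series asks how microglia and astrocytes respond to amyloid pathology at the level of the transcriptome.

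Border-associated macrophages are the resident macrophages of the meninges, the perivascular spaces and the choroid plexus. They share the myeloid sorting markers of microglia, so a sort of brain myeloid cells can hold both, and they take up material from blood, interstitial and cerebrospinal fluid through scavenger receptors and lectins. Mrc1, Cd163, Stab1 and Lyve1 encode endocytic and scavenger receptors, Siglec1 and Clec10a lectins that bind glycans, Pf4 and F13a1 a secreted chemokine and a transglutaminase of the coagulation system, Cbr2 a carbonyl reductase and Ms4a7 a tetraspanning membrane protein. None of these genes is restricted to these cells: Stab1 is also made by sinusoidal endothelium, Lyve1 by lymphatic endothelium, Pf4 by platelets and F13a1 by monocytes.

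The start regions of the 3 members with the largest falls in microglia, Stab1, Mrc1 and Cd163, are shown because these genes moved by similar amounts. Each window holds the 250 bases before a transcript start in the RefSeq annotation of GRCm38.p6, written 5′ to 3′ on the strand of the gene. Capitals mark AGGAAG, a core bound by PU.1 and other ETS factors, and TGCTGA, a half-site of MAF factors, on either strand, so that CTTCCT is AGGAAG on the opposite strand. The Mrc1 window lies at chr2:14229164-14229413 on the plus strand, that of Stab1 at chr14:31168642-31168891 on the minus strand and that of Cd163 at chr6:124304401-124304650 on the plus strand.
Mrc1: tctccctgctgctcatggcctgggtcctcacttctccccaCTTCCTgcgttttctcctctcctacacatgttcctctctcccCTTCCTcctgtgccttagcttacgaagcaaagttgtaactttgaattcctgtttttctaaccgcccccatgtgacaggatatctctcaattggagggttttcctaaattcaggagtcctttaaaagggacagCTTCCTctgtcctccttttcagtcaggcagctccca
Stab1: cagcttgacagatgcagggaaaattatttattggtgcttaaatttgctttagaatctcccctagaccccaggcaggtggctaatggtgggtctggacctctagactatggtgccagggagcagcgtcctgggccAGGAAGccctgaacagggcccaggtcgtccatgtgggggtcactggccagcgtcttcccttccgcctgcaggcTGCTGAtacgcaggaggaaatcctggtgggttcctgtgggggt
Cd163: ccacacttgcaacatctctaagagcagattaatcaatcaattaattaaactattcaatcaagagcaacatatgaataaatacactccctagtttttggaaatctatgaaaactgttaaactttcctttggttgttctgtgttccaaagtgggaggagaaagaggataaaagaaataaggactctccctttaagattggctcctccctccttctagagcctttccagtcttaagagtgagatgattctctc
The Mrc1 window held 3 copies of AGGAAG, all on the minus strand, the Stab1 window 1 copy of AGGAAG and 1 of TGCTGA, and the Cd163 window neither. RefSeq windows were matched for 7 of the 10 members, in 9 windows. AGGAAG occurred in 6 of these 9 windows, belonging to Mrc1, Stab1, Pf4, F13a1 and Cbr2, against 29.5% of all 32851 windows of this length. TGCTGA occurred in 1 of the 9 windows, against 16.1%, and the core of the interferon-stimulated response element in 0 of the 9, against 2.98%. No motif overlapped another in the windows shown. No window was matched for Lyve1, Siglec1 and Clec10a.

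The microglia libraries held 8834866 to 11700620 counts in WT mice and 11858295 to 18363154 in APP mice, and the astrocyte libraries 10569776 to 21865752 and 18125387 to 22522407. Levels are given as CPM, counts brought to a common library total with scaling factors estimated over all 18 libraries. Marker genes went with the labels: 10 microglial markers such as Tmem119 and P2ry12 summed to 28007 to 44651 CPM in microglia libraries and 248 to 386 CPM in astrocyte libraries, and 10 astrocyte markers such as Aldh1l1 and Aqp4 summed to 594 to 2221 CPM and 24790 to 44517 CPM. The 10 members summed to 1825 to 2123 CPM in WT microglia and 394 to 692 CPM in APP microglia. Among the astrocyte libraries, WT replicates 1 and 4 stood apart, with 10 blood endothelial markers summing to 424 and 365 CPM against 2022 to 3225 CPM in the other 7. Member values that moved by over 1.5 times without this pair are also given without it.

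In the microglia libraries 8 of the 10 members were lower in APP than in WT mice, and 0 were higher (edgeR quasi-likelihood test, Benjamini-Hochberg adjusted p under 0.05, sex as a covariate). The same 8 had every APP library below every WT library. Among all 13116 genes tested, 19.2% were called lower, 19.1% higher and 38.3% in either direction, while 18.7% had all APP libraries below all WT libraries and 20.4% all above. The median log2 fold change, APP against WT, was -1.32 over the 10 members and 0.01 over all genes tested. In bulk RNA from sorted cells, fewer border-associated macrophages among the sorted cells and less RNA of these genes per cell cannot be told apart.

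**Figure D1:**
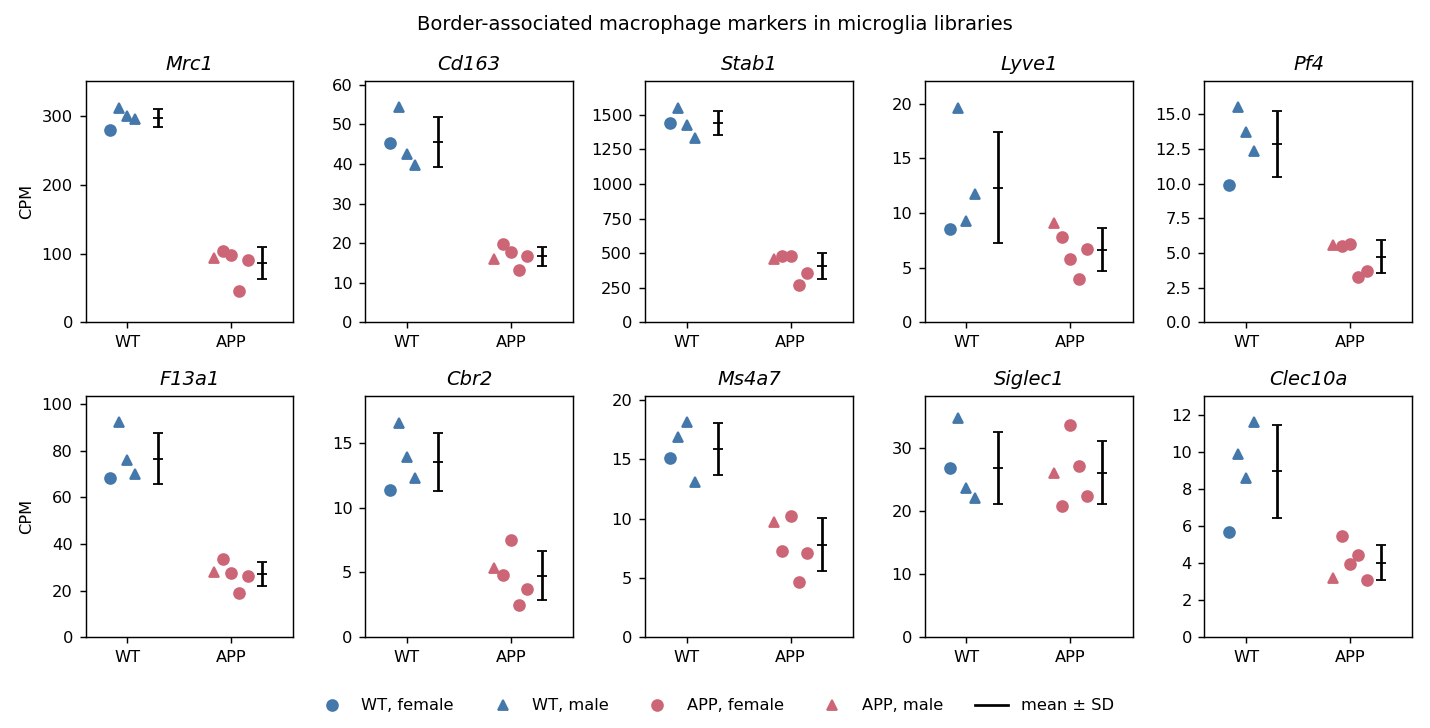
Level of each member in CPM (vertical axis, linear and starting at 0) in the 4 WT and 5 APP microglia libraries, 1 panel per gene. Circles are females and triangles males, with the mean and SD beside each group; in 8 panels every APP point lies below every WT point, and in those of Lyve1 and Siglec1 the groups overlap.

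Mrc1, the mannose receptor that defines border-associated macrophages in many protocols, stood at 279, 312, 300.2 and 296 CPM in WT replicates 1 to 4 and at 92.9, 104, 98.5, 45.02 and 91.2 CPM in APP replicates 1 to 5. The 4 WT libraries lay close together and far above the APP libraries, of which replicate 4 stood apart at the bottom. The mean fell from 297 ± 13.4 CPM (SD, n = 4) to 86.2 ± 23.5 CPM (SD, n = 5), a log2 fold change of -1.76 (SE 0.22, edgeR adjusted p = 7.86e-05).

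Stab1, a scavenger receptor of the stabilin family, was the most abundant member. Its WT libraries held 1442, 1552, 1430 and 1336 CPM, and its APP libraries 456, 478, 482, 270.2 and 356 CPM. The groups were again far apart, with APP replicate 4 lowest. Its log2 fold change was -1.81 (SE 0.18, edgeR adjusted p = 1.21e-05), the largest among the members.

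Cd163, the receptor for haemoglobin bound to haptoglobin, measured 45.4, 54.4, 42.4 and 39.7 CPM in WT and 15.997, 19.8, 17.9, 13.1 and 16.7 CPM in APP libraries. The groups did not overlap. The SD was 6.36 CPM in WT and 2.46 CPM in APP libraries, around means of 45.5 and 16.7 CPM. The log2 fold change was -1.51 (SE 0.14), with the smallest adjusted p of the members, 9.62e-06 (edgeR).

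Lyve1, a hyaluronan receptor that marks a subset of perivascular and meningeal macrophages, measured 8.57, 19.7, 9.32 and 11.7 CPM in WT and 9.05, 7.81, 5.81, 3.93 and 6.67 CPM in APP libraries. WT replicate 2 was high, and WT replicate 1, the female, lay below APP replicate 1, the male. The log2 fold change of -0.58 (SE 0.28) was not called (edgeR adjusted p = 0.125). Without sex as a covariate it was -0.90 and was called (edgeR adjusted p = 0.0126).

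Among the lectins, Siglec1, the sialic acid-binding receptor sialoadhesin, did not separate the genotypes. It measured 26.9, 34.8, 23.7 and 22.1 CPM in WT and 26.1, 20.9, 33.8, 27.2 and 22.5 CPM in APP libraries. Both groups covered nearly the same range, and the log2 fold change was -0.08 (SE 0.18, edgeR adjusted p = 0.751). Clec10a, a C-type lectin for galactose-type sugars, measured 5.68, 9.88, 8.61 and 11.6 CPM in WT and 3.20, 5.46, 3.94, 4.44 and 3.11 CPM in APP libraries. The groups did not overlap, though WT replicate 1 lay close to APP replicate 2. The log2 fold change of Clec10a was -1.05 (SE 0.31, edgeR adjusted p = 0.0188). Without APP replicate 1, the only male of its group, it was -0.52 and the call was lost (adjusted p = 0.270), and without WT replicate 1, the only female of its group, it was -1.65 (adjusted p = 0.0133). Clec10a and its neighbour Mgl2 are close paralogs, and the sources used here do not say how reads shared between them were counted. Mgl2 itself was 18.2 ± 4.08 CPM (SD, n = 4) in WT and 6.08 ± 1.56 CPM (SD, n = 5) in APP microglia, a log2 fold change of -1.79 (SE 0.26, edgeR adjusted p = 0.000254).

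F13a1, which encodes the A subunit of coagulation factor XIII, measured 68.1, 92.2, 76.1 and 70.2 CPM in WT and 28.2, 33.7, 27.6, 19.2 and 26.2 CPM in APP libraries. Pf4, a chemokine best known from platelet granules, measured 9.91, 15.5, 13.7 and 12.4 CPM in WT and 5.58, 5.54, 5.69, 3.26 and 3.69 CPM in APP libraries. For both genes the highest APP library lay well below the lowest WT library. The log2 fold changes were -1.46 (SE 0.16, edgeR adjusted p = 2.77e-05) for F13a1 and -1.26 (SE 0.22, edgeR adjusted p = 0.000827) for Pf4.

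Cbr2, a carbonyl reductase, measured 11.4, 16.5, 13.9 and 12.3 CPM in WT and 5.30, 4.78, 7.49, 2.51 and 3.69 CPM in APP libraries. Ms4a7, a membrane protein of the MS4A family, measured 15.1, 16.9, 18.2 and 13.1 CPM in WT and 9.69, 7.30, 10.2, 4.69 and 7.06 CPM in APP libraries. Neither gene overlapped between the groups. Log2 fold changes were -1.39 (SE 0.30, edgeR adjusted p = 0.00331) for Cbr2 and -0.93 (SE 0.23, edgeR adjusted p = 0.00712) for Ms4a7. Without WT replicate 1, the only WT female, both calls were lost, at -1.41 (adjusted p = 0.0679) for Cbr2 and -0.71 (adjusted p = 0.196) for Ms4a7. With sex as a covariate, that fit rests on APP replicate 1 alone on the APP side.

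APP replicate 4 had the lowest level among the APP libraries for 8 of the 10 members, all but Siglec1 and Clec10a. Without it, all 8 members were still called. Mrc1, Stab1, Cd163, F13a1 and Pf4 were called under all 17 alternative settings tried. Among these settings the Mrc1 log2 fold change ranged from -1.81 to -1.65, that of Stab1 from -1.95 to -1.65 and that of Cd163 from -1.55 to -1.46.

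In CPM per kilobase of exon (RPKM), which allows levels of different genes to be compared, the order in WT microglia was led by Stab1 at 140.0 ± 8.57, Mrc1 at 46.6 ± 2.10 and Pf4 at 17.9 ± 3.28 RPKM (SD, n = 4 each). The ranges of these 3 over the libraries did not overlap each other or that of the next gene. F13a1 (11.4 RPKM), Cbr2 (10.2 RPKM) and Cd163 (8.33 RPKM) followed, with neighbours overlapping. Lyve1 (4.22 RPKM), Siglec1 (3.76 RPKM), Ms4a7 (3.56 RPKM) and Clec10a (3.09 RPKM) were lowest, each overlapping the next. In APP microglia Stab1 at 39.7 ± 9.01 and Mrc1 at 13.5 ± 3.70 RPKM (SD, n = 5 each) were still first. Siglec1 ranked 5 there, at 3.65 RPKM, above Cbr2 at 3.58 and Cd163 at 3.06 RPKM, and every neighbouring pair after Stab1 overlapped.

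Since a ratio of counts within a library does not depend on how libraries are scaled, each member was also set against Mrc1 in the same library. The log2 ratio of Siglec1 to Mrc1 averaged -3.49 ± 0.27 (SD, n = 4) in WT and -1.69 ± 0.60 (SD, n = 5) in APP microglia, a difference of 1.80, with all 5 APP libraries above all WT libraries. That difference gave p = 0.00794 in a two-sided exact permutation test over 126 splits, the smallest p this design allows, and an adjusted p of 0.0476 over the 9 ratios. The ratios of Lyve1 and Ms4a7 were higher in APP by 0.98 and 0.78, each with p = 0.0159 and an adjusted p of 0.0476 (exact permutation tests). Stab1 kept pace with Mrc1 most closely, with a difference of -0.01 (exact permutation adjusted p = 0.929) and leave-one-out values from -0.09 to 0.07. The other 5 members, Clec10a, Cd163, Pf4, F13a1 and Cbr2, had differences of 0.26 to 0.71 that were not called (exact permutation adjusted p of 0.0536 to 0.268). All 9 ratios share Mrc1 as the denominator, and the adjustment covers these 9 alone, for members chosen with earlier results known. With any 1 library left out, the exact permutation adjusted p of the 3 called ratios was 0.0643 to 0.129. Fewer splits remain there, which raises the smallest p the test can give. The Siglec1 difference stayed between 1.56 and 1.96. Sex was not taken into account in these permutations.

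**Figure D2:**
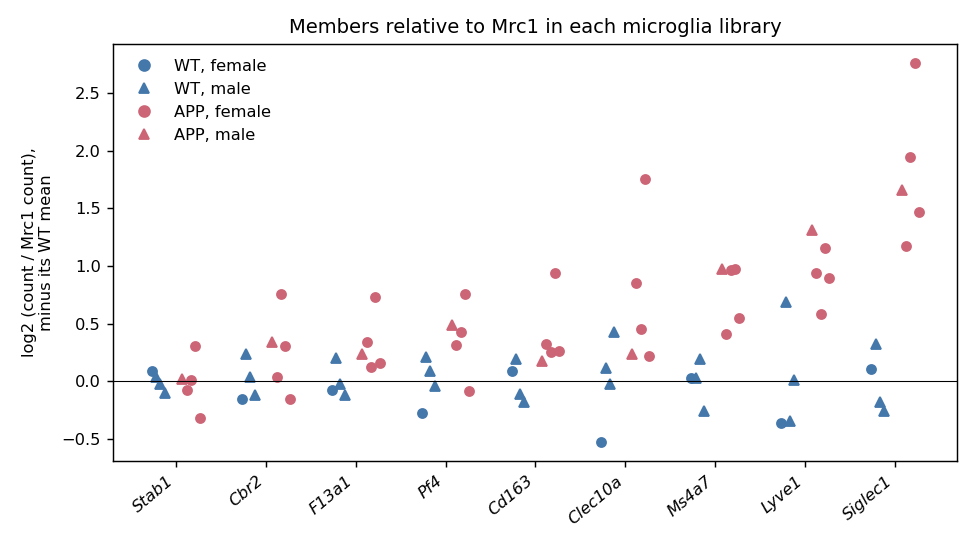
Log2 ratio of each member's count to the Mrc1 count in the same microglia library, minus the mean of that ratio over WT libraries (vertical axis, log2 units), for 9 members in order of the difference. Each point is 1 library, circles females and triangles males; Stab1 lies around 0 in both genotypes, while the Siglec1 ratio is higher in all 5 APP libraries than in any WT library, with a mean difference of 1.80.

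The profile of Mrc1 over the 9 microglia libraries was compared with those of 10231 genes that averaged 5 CPM or more, as the root-mean-square difference of mean-centred log2 levels. Stab1 was the nearest gene of all, at 0.15 log2 units. The 5 nearest genes outside the list were Rasgrp4 (0.21), Fcrl1 (0.22), Myo18b (0.23), Irf4 (0.24) and Adamtsl2 (0.24), in log2 units. Of the other members, F13a1 ranked 9, Cbr2 20, Cd163 23 and Pf4 34, whereas Ms4a7 ranked 109, Lyve1 343, Clec10a 349 and Siglec1 5137. The mean-centred profile holds the difference between the genotypes, so a gene with a fall of another size than that of Mrc1 ranks lower by construction.

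Other genes linked to border-associated macrophages were read from a list of 28, of which 27 were in the tables and 25 were tested in microglia. Of the 25, 12 fell and 5 rose, with a median log2 fold change of -0.72. Among all genes tested in microglia 19.2% fell and 19.1% rose. Slc40a1, the iron exporter ferroportin, fell from 261 ± 3.77 to 87.6 ± 11.6 CPM (log2 fold change -1.64, SE 0.11, edgeR adjusted p = 5.87e-07). Maf, a transcription factor of tissue macrophages, fell from 792 ± 26.3 to 355 ± 22.9 CPM (-1.17, SE 0.08, edgeR adjusted p = 1.13e-06), and Cd209a, a C-type lectin, from 22.4 ± 4.203 to 5.07 ± 1.17 CPM (-1.99, SE 0.20, edgeR adjusted p = 1.64e-05). All these means are given with SD for 4 WT and 5 APP libraries. Rises were seen for Nrp1, a semaphorin and VEGF co-receptor, from 325 ± 10.4 to 804 ± 96.3 CPM (1.32, SE 0.11, edgeR adjusted p = 3.18e-06). Colec12, a collectin scavenger receptor, rose from 8.74 ± 3.67 to 34.2 ± 3.62 CPM (2.13, SE 0.22, edgeR adjusted p = 1.67e-05), and Wfdc17 from 3.89 ± 1.10 to 11.5 ± 1.80 CPM (1.69, SE 0.22, edgeR adjusted p = 9.31e-05). The list did not move as one: Folr2, a folate receptor used as a marker of these macrophages and chosen for mention after its values were seen, was 6.19 ± 0.34 and 7.21 ± 0.68 CPM (0.24, edgeR adjusted p = 0.297).

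Markers of other cells that could share the microglia gate were read beside this fall, and their part in it was not tested. Microglial markers themselves were called lower for 8 of 10, with a median log2 fold change of -0.48, and their sum was 37003 to 44651 CPM in WT and 28007 to 33026 CPM in APP libraries. Of 8 monocyte markers 3 were tested and 1, Ccr2, fell (31.3 to 13.1 CPM), the list summing to 29.3 to 44.1 CPM in WT and 12.2 to 18.9 CPM in APP libraries, while Ly6c2 averaged 0.0855 and 0.126 CPM. Of 6 platelet markers 3 were tested and 2 fell, Gp9 and Gp1ba, with sums of 32.4 to 40.4 and 13.6 to 17.7 CPM. Ppbp, the chemokine stored with Pf4 in platelets, averaged 0.219 and 0.0572 CPM, against 0.194 to 0.359 CPM for 3 counts. Of 8 dendritic cell markers 7 were tested, 1 rose and 2 fell, one of them Cd209a, which is also in the list above, and their sums were 42.3 to 70.0 and 23.9 to 49.4 CPM. Of 8 neutrophil markers 3 were tested and 1, Csf3r, rose (468 to 620.1 CPM), making up nearly all of sums of 448 to 522 and 518 to 704 CPM. No lymphocyte marker of 8 passed the filter, with sums of 1.45 to 3.37 and 1.16 to 2.53 CPM.

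Vessel, border and ventricle markers were scarce but present in microglia libraries. Blood endothelial markers (9 tested, 1 up, 1 down) summed to 69.1 to 93.9 CPM in WT and 132 to 192 CPM in APP libraries, the 2 called genes moving apart. Flt1, a VEGF receptor, rose from a mean of 7.01 to 117 CPM (log2 fold change 4.39, edgeR adjusted p = 1.21e-05), and Pecam1, an adhesion molecule of endothelial junctions, fell from 41.8 to 7.71 CPM (log2 fold change -2.56, edgeR adjusted p = 1.45e-06), both named after their values were seen. Of 5 lymphatic endothelial markers 3 were tested and 0 called (sums 28.4 to 43.7 and 25.7 to 35.9 CPM), and Ccl21a was at 0 in all libraries. Mural markers (8 tested, 0 called) summed to 25.5 to 208 and 125 to 179 CPM, fibroblast markers (7 tested, 1 up) to 8.24 to 73.0 and 58.3 to 77.0 CPM, and choroid plexus and ependymal markers (4 tested, 3 up) to 8.46 to 308 and 195 to 374 CPM. For these 3 lists the low WT libraries were replicates 1 and 4. Without WT replicates 1 and 4 together, 6 of the 8 calls were left, Cbr2 (-1.47, edgeR adjusted p = 0.0771) and Ms4a7 (-0.81, edgeR adjusted p = 0.168) being lost.

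In the astrocyte libraries 5 of the 10 members passed the filter on low counts: Stab1 at 47 to 909 counts per library, Cd163 at 19 to 110, Mrc1 at 16 to 75, F13a1 at 4 to 49 and Cbr2 at 1 to 24. Of these, 1 was called higher in APP and 0 lower, and for 0 of the 10 members did the groups separate. Among all 14957 genes tested, 12.1% were called higher and 25.6% in either direction, 9.77% had all APP libraries above all WT libraries and 11.7% all below. The gene called was F13a1, with 4, 23, 6 and 5 counts in WT and 49, 14, 13, 24 and 14 counts in APP libraries, so that WT replicate 2 lay within the APP range. Its log2 fold change was 1.76 (SE 0.53, edgeR adjusted p = 0.0411). The call was lost without sex as a covariate (0.97, adjusted p = 0.246), without the filter (1.75, adjusted p = 0.0508), and without any one of WT replicates 1 and 4 and APP replicates 1, 2, 3 and 5 (adjusted p from 0.0549 to 0.248). With the replicate number as a block, its adjusted p was 0.101. Without WT replicates 1 and 4 together it was 1.75 (edgeR adjusted p = 0.288).

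Stab1 in astrocyte libraries measured 4.25, 30.4, 23.2 and 4.70 CPM in WT and 33.0, 41.3, 29.2, 39.5 and 22.96 CPM in APP libraries. WT replicates 1 and 4 were far below the other 7, which overlapped each other. The same 2 libraries held the fewest blood endothelial transcripts, as given above, and the part of those cells in the Stab1 values was not tested. The log2 fold change of 1.78 (SE 0.74) was not called (edgeR adjusted p = 0.102), and without WT replicates 1 and 4 it was 0.29 (adjusted p = 0.706). Without sex as a covariate it was 1.06 (edgeR adjusted p = 0.167). It was called by DESeq2 (1.88, adjusted p = 0.0298), by limma on the deposited log2 values (2.06, adjusted p = 0.0442) and without WT replicate 2 (2.05, edgeR adjusted p = 0.0489).

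Cd163 in astrocyte libraries measured 1.84, 0.966, 2.04 and 1.9 CPM in WT and 2.43, 3.14, 3.05, 2.03 and 4.31 CPM in APP libraries. WT replicates 1 and 4 lay beside WT replicate 3 here. Its log2 fold change was 0.68 (SE 0.35, edgeR adjusted p = 0.169). Mrc1 measured 0.920, 3.45, 1.36 and 2.20 CPM in WT and 2.30, 3.14, 2.22, 1.94 and 2.16 CPM in APP libraries. Its log2 fold change of 0.62 (SE 0.46, edgeR adjusted p = 0.321) became -0.04 without WT replicate 1 and -0.07 without WT replicates 1 and 4. Cbr2, at 1 to 20 counts in WT and 6 to 24 in APP libraries, gave 0.98 (SE 0.73, edgeR adjusted p = 0.325), and 0.0631 without WT replicates 1 and 4 (adjusted p = 0.978). The 5 members under the filter had at most 13 counts in a library: 0 to 9 for Lyve1, 0 to 10 for Pf4, 0 to 6 for Ms4a7, 0 to 13 for Siglec1 and 0 to 6 for Clec10a. A difference between genotypes was not tested for these 5, at a depth where 3 counts are worth 0.118 to 0.300 CPM. Siglec1 had 0, 6, 1 and 0 counts in WT and 3, 13, 12, 13 and 5 counts in APP astrocyte libraries, more in most APP libraries but with WT replicate 2 inside the APP range.

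**Figure D3:**
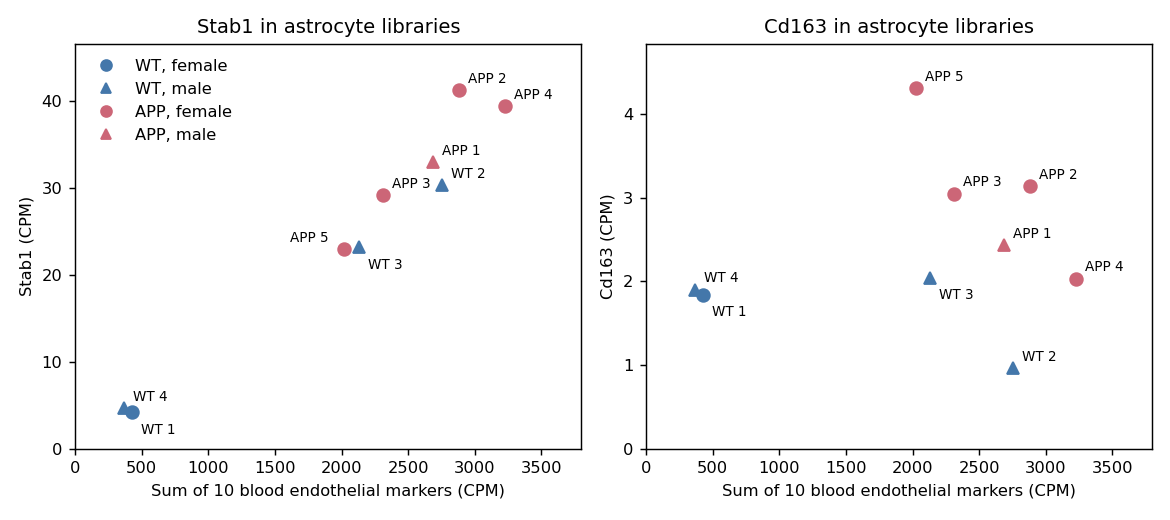
Level of Stab1 (left) and Cd163 (right) in CPM in the 9 astrocyte libraries, against the summed CPM of 10 blood endothelial markers in the same library (linear axes from 0). Points are single libraries labelled by genotype and replicate, circles females and triangles males; WT 1 and WT 4 are low on both axes for Stab1, while for Cd163 they lie beside WT 3.

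The member levels in astrocyte libraries were set beside those in the microglia libraries of the same mouse. The level of Cd163 in astrocyte libraries was 1.78% to 4.82% of that in microglia libraries in the 4 WT mice and 15.2% to 25.9% in the 5 APP mice. The share was 0.329% to 1.11% and 2.26% to 4.31% for Mrc1, 0.295% to 1.96% and 6.07% to 14.6% for Stab1, 0.316% to 1.15% and 1.89% to 7.70% for F13a1, and 0.815% to 5.57% and 6.37% to 30.1% for Cbr2. Without WT replicates 1 and 4 the WT share was 1.62% to 1.96% for Stab1 and 4.34% to 5.57% for Cbr2. Over 10 microglial markers the median share in a mouse was 0.210% to 0.334% in WT and 0.703% to 0.958% in APP mice. Sall1 stood apart among the markers, at 7.78% to 13.03%, and the other 9 were at most 0.964% in WT and 3.17% in APP mice. Cd163 therefore lay above 9 of the 10 markers in all 4 WT mice and above all 10 in 5 of 5 APP mice, as did Cbr2 in 4 and Stab1 in 1 of the 5 APP mice. The share depends on both libraries, and the mean Cd163 level in microglia libraries, its denominator, was 45.5 CPM in WT and 16.7 CPM in APP mice. In the astrocyte libraries 8 of the 10 microglial markers rose and 1 fell, where 12.1% of all genes tested rose and 13.5% fell. The sum of these markers was 248 to 268 CPM in WT and 340 to 386 CPM in APP libraries. All 7 fibroblast markers rose there as well, with sums of 260.0 to 737 and 977 to 1269 CPM. Of the 13 other genes linked to border-associated macrophages that were tested in astrocytes, 6 rose and 0 fell. Calls for these lists were not repeated without WT replicates 1 and 4. The part of microglia, border cells and vessel cells in these values was not tested.

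**Figure D4:**
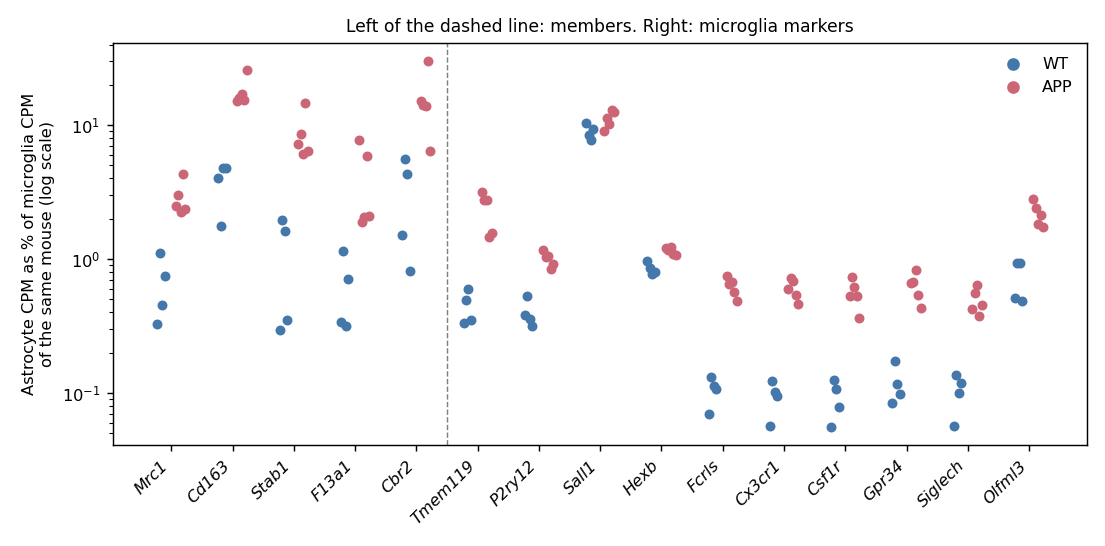
Level in the astrocyte library as a percentage of the level in the microglia library of the same mouse (vertical axis, log scale), for the 5 members detected in every library pair (left of the dashed line) and 10 microglial markers (right). Each point is 1 mouse, 4 WT and 5 APP; Cd163 reaches 15.2% to 25.9% in APP mice, and Sall1 is the highest marker.

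The response to the genotype was then compared between the cell types as an interaction over all 18 libraries. For 5 of the 10 members the APP response was lower in microglia than in astrocytes, and for 0 it was higher. The same was seen for microglial markers, with 8 of 10 called lower, 0 higher and a median difference of -2.45 in log2 fold change. Among all 15550 genes tested, 8.91% were called lower and 21.4% in either direction. Given as microglia minus astrocytes, the difference in log2 fold change was -3.52 for Stab1 (SE 0.74, edgeR adjusted p = 0.00312), -3.20 for F13a1 (SE 0.49, edgeR adjusted p = 0.000279) and -2.25 for Cbr2 (SE 0.75, edgeR adjusted p = 0.0435). It was -2.24 for Mrc1 (SE 0.50, edgeR adjusted p = 0.00440) and -2.15 for Cd163 (SE 0.37, edgeR adjusted p = 0.000657). These are the 5 members that passed the filter in both cell types, and the other 5 are not given because their astrocyte counts were at or near 0. Without WT replicate 1 of both cell types 2 were left, Cd163 and F13a1, where 855 of 15676 genes were called, against 3328 of 15550 in the full fit. Without WT replicates 1 and 4 together 3 were left, Cd163, F13a1 and Stab1, where 922 of 15920 genes were called. In the latter fit the difference was -2.01 for Stab1 (edgeR adjusted p = 0.0414), -1.68 for Mrc1 (adjusted p = 0.254) and -1.59 for Cbr2 (adjusted p = 0.429). With single mice left out it ranged from -4.97 to -2.39 for Stab1, from -3.21 to -1.68 for Mrc1 and from -3.35 to -1.80 for Cbr2, the largest differences being those without APP replicate 1 and the smallest those without WT replicate 1. Cbr2 was called in 4 of the 9 fits that left out 1 mouse. With sex as a covariate, the fits without WT replicate 1 or APP replicate 1 rest on 1 mouse on one side.

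**Figure D5:**
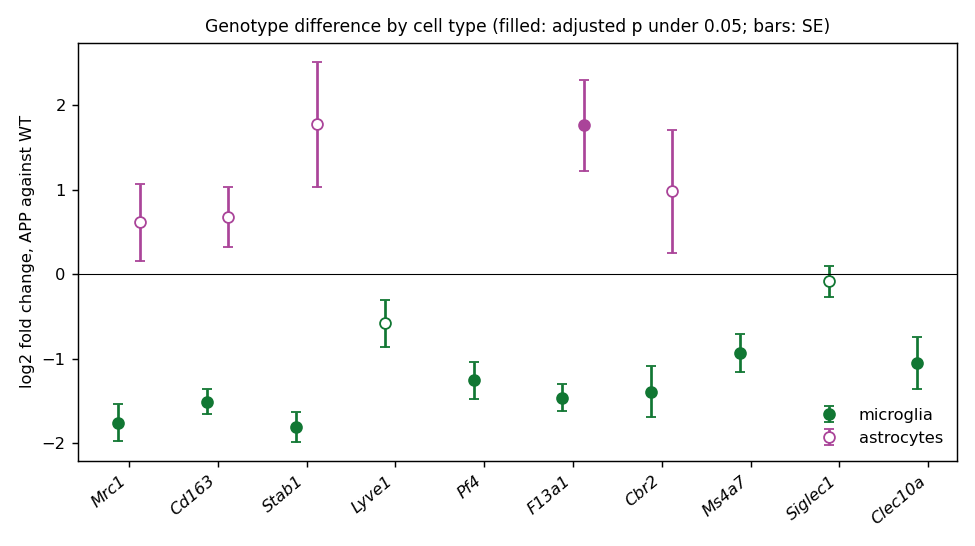
Log2 fold change, APP against WT (vertical axis), of each member in microglia (green) and of the 5 members tested in astrocytes (purple), with bars of 1 SE. Filled points had an adjusted p under 0.05; in microglia the called members range from -1.81 for Stab1 to -0.93 for Ms4a7, and in astrocytes only F13a1, at 1.76, is filled.

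The 5 members that passed the filter in both cell types were higher in microglia than in astrocyte libraries in both genotypes (edgeR). Among 15550 genes, 37.9% were called higher in WT and 40.7% in APP mice, and 80.1% and 81.1% in either direction. The other 5 members entered this test only through their microglia counts. Their outcome was nearly fixed in advance and is not counted. For the 5 members measurable in both, the log2 difference in WT was 7.69 for F13a1, 7.33 for Mrc1, 6.84 for Stab1, 4.88 for Cbr2 and 4.70 for Cd163, and in APP mice 4.48, 5.09, 3.32, 2.64 and 2.55 in the same order. Without WT replicates 1 and 4 the value for Stab1 in WT was 5.69, and without APP replicate 1 the values in APP mice were 2.35 for Stab1, 4.44 for Mrc1 and 1.93 for Cbr2, the last not called (edgeR adjusted p = 0.102). These 5 members had all APP below all WT microglia libraries, as 18.7% of genes tested in microglia had. They also had all astrocyte libraries below all APP microglia libraries. The share of all genes with this whole order was not computed, so the order is given as a description only. For Lyve1 and Siglec1 the microglia groups overlapped. The WT and APP astrocyte groups overlapped for all 10. Without APP replicate 1, Mrc1, Cd163, Stab1 and F13a1 were still called higher in APP microglia than in APP astrocytes. The remaining APP mice were then all female.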

How the data were processed

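Per the labels, RNA came from sorted microglia and astrocytes of whole brains, and the deposited tables hold read counts per gene made by the authors, 1 raw count table per cell type. The authors' deposited log2 tables equal log2 of the count plus 0.5, up to 1 constant per library (tolerance 1e-09), and cover 12902 genes in microglia with all 10 members and 14141 in astrocytes with 3. Per the submitters' processing notes the build was mm10, and the tools were STAR 2.7.3a and SAMtools 1.9, then limma 3.46.0 beside edgeR 3.32.1, after FastQC 0.11.8 and Trimmomatic 0.39. The sources used here do not give the counting tool, the annotation or the strand setting, and the tables' names say that outliers had been left out.

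The members and all marker lists were chosen with earlier results of these data known. Counts were fitted with edgeR 4.0.16 in R 4.3.3 (TMM scaling, filterByExpr with a minimum count of 10 and total of 15, quasi-likelihood F-test, Benjamini-Hochberg adjustment over all genes tested), within each cell type with sex as a covariate, and over all 18 libraries with sex within each cell type for the interaction and the cell type comparisons. CPM use TMM factors from 1 fit over all libraries and are not adjusted for sex, while the fold changes are. Fold changes can therefore differ from ratios of the means. For Stab1 in astrocytes the log2 fold change was 1.78 with sex as a covariate and 1.06 without it. RPKM divide CPM by exon length from a GRCm38 annotation. The tests were checked on simulated data. Precision is set by the total counts, 8834866 to 22522407 per library, and a floor of 3 counts covers counting error only. No 2 libraries of a group agreed within sampling noise (chi-square per degree of freedom at least 5.53).

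Library names give the mouse, which pairs the cell types: profiles relative to the group means correlated at r = 0.0478 to 0.401 within a mouse, over 0.1 in 8 of 9. Named were all 10 members, the 6 called genes with the smallest adjusted p from the list of other linked genes, counts and sums for the lists of microglia, astrocytes, monocytes, neutrophils, dendritic cells, lymphocytes, platelets, blood and lymphatic endothelium, mural cells, fibroblasts and choroid plexus with ependyma, and the 5 genes nearest to Mrc1, with a pseudocount of 0.5 on CPM. Alternatives were DESeq2 1.42.0, limma 3.58.1 (voom, and the deposited log2 values), no filter on low counts, at least 50 counts in at least 4 libraries, no sex covariate, the replicate block and leaving out each library or mouse. Leaving out WT replicates 1 and 4 together, and single libraries for the ratios to Mrc1, were chosen after seeing the data. The genotypes were compared across separate mice, and 1 of the 28 other linked genes, Ms4a4a, was not matched in the tables.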

Additional observations from a re-analysis of the deposited data

Results flagged for a closer look

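In APP microglia, Mrc1 in replicate 4 (45.02 CPM) lay far below the nearest of the other 4 libraries (91.2 CPM), a gap of 0.789 of the range of the group. In WT astrocytes, Siglec1 in replicate 2 (0.276 CPM, from 6 counts) lay above the nearest library (0.0401 CPM), a gap of 0.855 of the range. These 2 came from 40 groups of member values checked, and chance flags about 1 in 20 such groups.

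The response to the APP genotype differed between microglia and astrocytes in the interaction test for Stab1 (-3.52), F13a1 (-3.20), Cbr2 (-2.25), Mrc1 (-2.24) and Cd163 (-2.15), as log2 fold change in microglia minus that in astrocytes. In microglia all 5 had every APP library below every WT library, while in astrocytes the groups overlapped for each of them. Without WT replicate 1 of both cell types, the difference was -2.39 for Stab1 (edgeR adjusted p = 0.147), -1.68 for Mrc1 (0.186) and -1.80 for Cbr2 (0.396), and it remained called for F13a1 (-3.33, 0.0103) and Cd163 (-2.10, 0.0463).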

How the results depend on the processing

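In microglia the number of members called lower was 6 to 8 with each library left out in turn, and 8 with the replicate number as a block. Siglec1, not called, ranged from -0.15 to 0.000103 and changed sign without WT replicate 2. In astrocytes, against 1 member called, DESeq2 called 2, and 0 were called without the filter, without the sex covariate, with the filter of 50 counts, with the replicate number as a block and without WT replicates 1 and 4 together; leaving out single libraries gave 0 to 2. Mrc1 there, not called, ranged from -0.0356 to 1.36 with single libraries left out and was -0.0665 without WT replicates 1 and 4. For the difference between the cell types, against 5 members, 2 to 6 were called with single mice left out, 3 without WT replicates 1 and 4, and 5 with the mouse as a replicate block. In the comparison of microglia with astrocytes, 8 to 10 members were called in WT mice with single mice left out, against 10. In APP mice 6 to 10 were called, against 10, and with the mouse as a replicate block 10 were called in each. These counts include the 5 members that entered only through their microglia counts, with an outcome nearly fixed in advance. Among all genes tested 37.9% were called higher in WT and 40.7% in APP mice. Of the 5 members measurable in both cell types, the only call lost with single mice left out was Cbr2 in APP mice, without APP replicate 1. Of the ratios to Mrc1, 3 were called over all libraries and 0 with any library left out, where fewer splits remain; that of Stab1 changed sign without WT replicate 1 (0.02), WT replicate 2 (0.00328), APP replicate 2 (0.00577) and APP replicate 5 (0.0669), within a range of -0.0888 to 0.0669. Without WT replicate 1 the calls over all genes tested also fell, from 5022 to 2641 in microglia and from 3836 to 34 in astrocytes. For the difference between the cell types they fell from 3328 to 855. The cause of these changes was not tested.

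The mouse block changed no call in the comparisons between cell types. The same replicate number in WT and APP is only a number: profiles of same-numbered libraries correlated at -0.316 to 0.0272 in microglia and -0.350 to 0.0707 in astrocytes, and 0 matched their own number best. Only 1 WT mouse is female and only 1 APP mouse male, so leaving out WT replicate 1 or APP replicate 1 leaves a comparison of genotypes within 1 sex. Counts of 0 to 13 per library kept 5 members out of the astrocyte test.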
